A study of Mus musculus with 6 samples.

Results

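The Zfp genes of the mouse encode zinc finger proteins, and 251 of them were expressed in the macrophage libraries described here. Members were chosen by their symbol, Zfp followed by a digit, and by their level: at least 1 FPKM (fragments per kilobase of gene length, scaled to library depth) in at least 3 of 6 libraries. The AU-rich element binding genes Zfp36, Zfp36l1 and Zfp36l2 were left out by the rule. The deposited tables listed 21936 genes, of which 9953 reached that level, and 398 genes with such a symbol. After the 3 exclusions 144 Zfp genes stayed below the level, 30 of them without a read in any library.

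RNA sequencing was done on sorted macrophages in 2 groups of 3 libraries, from mice kept for 4 months on high-fat food. The libraries labelled WT came from ALKBH5flox/flox, APOE-/- mice, and those labelled CKO from ALKBH5flox/flox, Lyz2-Cre, APOE-/- mice, so that the floxed Alkbh5 allele, the loss of Apoe and the diet were common to both. ALKBH5 is an enzyme that removes the N6-methyladenosine mark from RNA. Lyz2-Cre acts in the myeloid lineage, which holds neutrophils as well as macrophages. The labels leave unstated how many animals stand behind each group, so p-values measure only how these libraries spread, which may be technical.

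Most Zfp proteins carry a row of C2H2 zinc fingers, loops folded around a zinc ion that read DNA a few bases at a time. Many also carry a KRAB domain, which recruits the corepressor TRIM28 and with it histone methyltransferase and deacetylase complexes to silence transposable elements and other targets. Genes of the KRAB type arose by repeated tandem duplication and lie in clusters of close relatives. Other Zfp proteins lack KRAB and work as activators, as parts of chromatin complexes, or on RNA.

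Recovered depth was 15422154 to 18418903 reads per library. The labels were checked first. Alkbh5 read 3.77, 3.95 and 3.88 FPKM in the WT-labelled libraries and 9.15, 8.61 and 8.50 in those labelled CKO, against the label, although reads over the whole gene cannot show whether an exon was missing. Apoe, labelled null in both groups, read 1635 ± 29.3 FPKM (SD, n = 3) against 95.02 ± 4.69. Every direction given here therefore refers to libraries as labelled. The summed level of 10 macrophage markers, each at 1 FPKM or more in at least 1 group, was 16385 to 18297 FPKM in the WT-labelled libraries and 9220 to 9647 in those labelled CKO, a sum carried by Lyz2 (15116 ± 992 against 6556 ± 211 FPKM). Of the 10, 5 were higher and 5 lower: Adgre1 went from 222 ± 2.98 to 778 ± 19.5 FPKM, while Cd163 was under 1 FPKM in every library labelled CKO. Markers of other cells also differed: 12 neutrophil genes (10 at the level) summed to 637 to 935 against 242 to 250 FPKM, with 7 of the 9 tested lower but Lcn2 and Mmp8 higher, 9 listed T and NK cell genes (1 at the level, Cd4) to 4.57 to 5.32 against 1.11 to 1.36, and 7 listed B cell genes (4 at the level) to 29.6 to 31.0 against 20.01 to 20.3. Erythroid and platelet genes (3 of 9 at the level, Gp1bb at 0) summed to 173 to 189 against 115 to 128 FPKM, endothelial genes (3 of 7) to 26.7 to 27.4 against 7.94 to 9.10, and fibroblast genes (0 of 7, Dpt at 0) to 0.562 to 0.904 against 0.758 to 1.08. Their part in the results on Zfp genes was not tested, and in bulk RNA fewer cells of a type and less RNA per cell cannot be told apart.

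As a whole the family took a smaller share of the reads in the libraries labelled CKO. All listed Zfp genes together held 0.650 ± 0.0068% of reads in the WT-labelled libraries and 0.547 ± 0.011% in those labelled CKO (SD, n = 3 each). The groups did not overlap: the lowest library labelled WT was at 0.642% (95% Wilson interval 0.639 to 0.646) and the highest labelled CKO at 0.554% (0.550 to 0.558), intervals that cover counting error only. Summed FPKM was 1206 ± 14.3 against 1014 ± 15.5. Scaling by the median of ratios, which sets the typical gene equal between libraries, brought the sums to 1137 ± 6.35 and 1076 ± 12.7, still without overlap in range (1131 to 1144 against 1062 to 1088). Between 245 and 253 Zfp genes reached 1 FPKM in a library labelled WT, and between 227 and 234 in one labelled CKO.

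Gene by gene, more Zfp genes were lower than higher in the libraries labelled CKO. In the limma fit over all 9953 genes on log2(FPKM + 1), called at an adjusted p under 0.05, 137 of the 251 members were lower (54.6%), 49 higher (19.5%) and 65 not called. These counts include 18 members that reached 1 FPKM in 1 group only, whose direction the rule fixed; of the other 233, 124 were lower (53.2%) and 44 higher (18.9%). The background was 50.5% of all tested genes lower and 30.5% higher, 81.1% called in either direction, so calls in this comparison are common. Of the members 74.1% were called, at a median level of 2.93 FPKM against 7.91 for all genes; of all genes between 2 and 5 FPKM 75.5% were called. These differences in share were not tested. The members' median fold change was -0.20, with quartiles of -0.42 and 0.07, where all genes had a median of -0.14 and quartiles of -0.52 and 0.23. Large changes were few: 3 members were higher by at least 1 on the log2 scale, only 1 of them at the level in both groups, where 8.35% of all genes were, and 6 were lower by at least that much, where 10% were. Values of the groups did not overlap in 188 members, against 82.5% of all genes.

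The balance of directions moved with the scaling. Median-of-ratios scaling raised fold changes of all genes by 0.149 in the median and quantile normalization by 0.102. Under the first, 72 members were higher and 104 lower, where 39.7% and 39.8% of all genes were (79.5% called), and the share of higher calls among the members' calls went from 26.3% to 40.9%. Under the second, 74 were higher and 97 lower, where 35.9% and 43.4% of all genes were (79.3% called). The lower group stayed the larger in all 3 versions, 153 of the 186 calls remained under median-of-ratios scaling, and no member was called in the opposite direction.

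**Figure D1:**
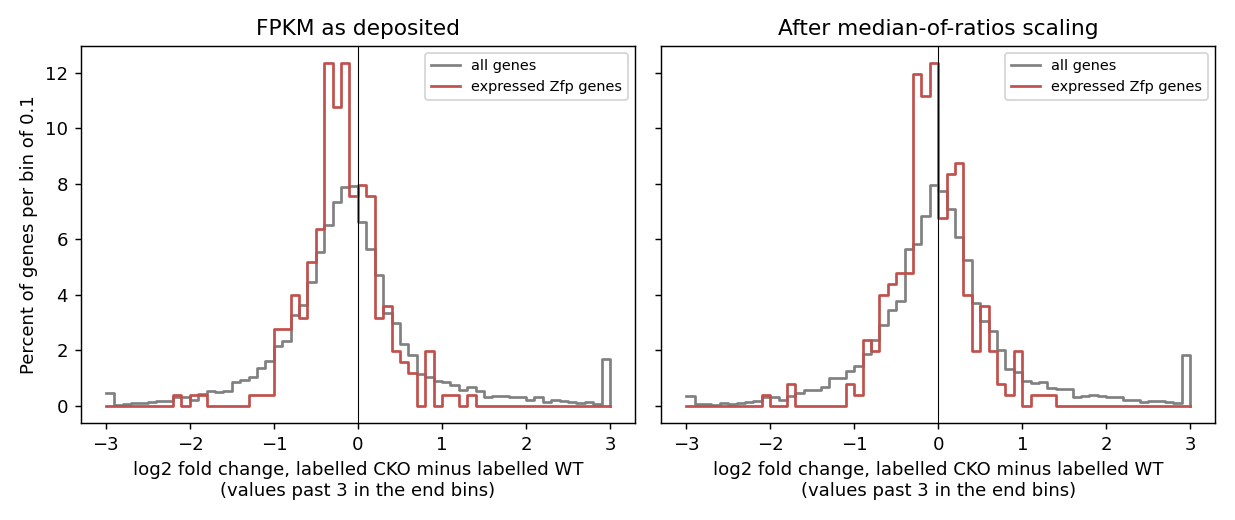
Share of genes (percent) in bins of 0.1 of the log2 fold change, labelled CKO minus labelled WT, for all 9953 tested genes (grey) and the 251 expressed Zfp genes (red), from FPKM as deposited (left) and after median-of-ratios scaling (right). The Zfp genes are packed around a median of -0.20 on the left and -0.09 on the right, and few lie past 1 in either direction.

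On FPKM as deposited, more members were lower than higher at every level. After median-of-ratios scaling this turned for the 19 members above 10 FPKM, with 9 higher (47.4%) and 7 lower (36.8%). Of all genes of that level 48.2% were higher and 38.4% lower after this scaling, so the turn was not particular to the members. As deposited, the 72 members with a mean under 2 FPKM were higher in 20.8% and lower in 56.9%, and all genes of that level in 24.7% and 52.0%. These 72 include all members that reached 1 FPKM in 1 group only, whose direction the rule fixed. Among the 114 members between 2 and 5 FPKM 14.9% were higher and 54.4% lower, with 23.1% and 52.4% of all genes. Of the 46 members between 5 and 10 FPKM 26.1% were higher and 54.3% lower, and of the 19 above 10 FPKM 26.3% and 47.4%, where all genes had 27.3% and 51.5%, then 38.0% and 48.6%. Across the 251 members, which share the same 6 libraries, fold change and mean level had a Pearson r of -0.037 and a Spearman rho of 0.026, and fold change and gene length -0.099 and -0.086.

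KRAB genes were expressed at lower levels than the rest. The annotation in the deposited tables marked 123 members as KRAB type, with a median level of 2.33 FPKM, and the other 128 had a median of 4.36. Of the KRAB members 64 were lower (52.0%), 21 higher and 38 not called (median fold change -0.19). Of the rest 73 were lower (57.0%), 28 higher and 27 not called (median -0.21), where 50.5% of all genes were lower. After median-of-ratios scaling 39.8% of all genes were lower and 39.7% higher. The counts were then 49 lower and 28 higher for KRAB members, and 55 and 44 for the others. Both sets of counts include members that reached 1 FPKM in 1 group only, whose direction the rule fixed. Most of these were annotated KRAB. The difference between KRAB and other members was not tested, and the annotation leaves out Zfp263, Zfp445 and Zfp932, which are known to carry the domain. All 6 members that fell by 1 or more were outside the annotated KRAB set. Of members at the level in both groups, only Zfp719, a KRAB gene, rose by 1 or more.

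**Figure D2:**
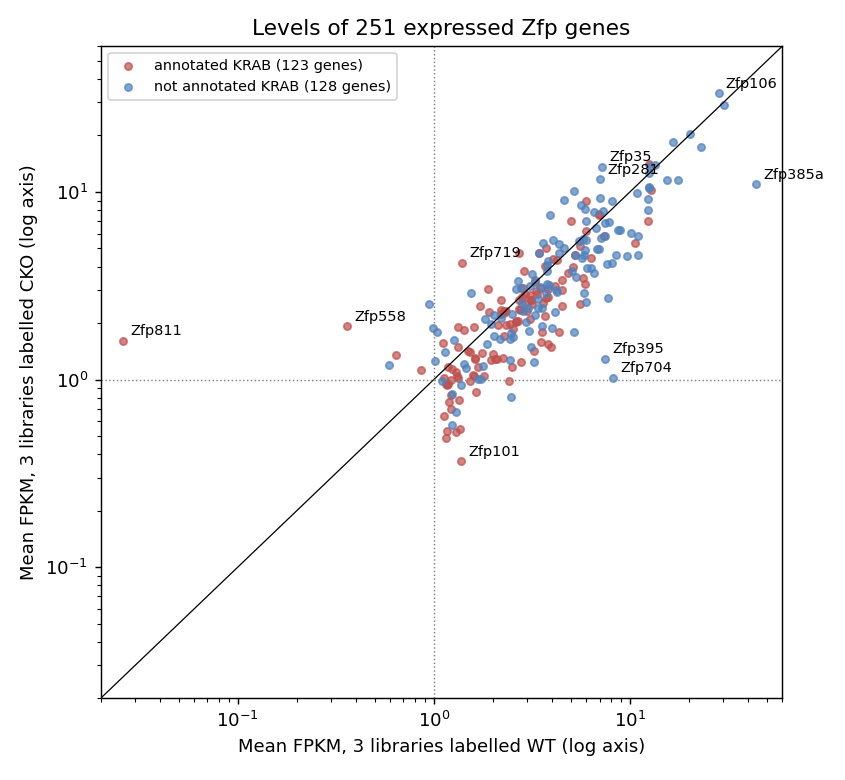
Mean FPKM of each of the 251 members in the 3 libraries labelled WT (horizontal, log axis) and the 3 labelled CKO (vertical, log axis), with annotated KRAB genes in red and others in blue. The line marks equal levels and the dotted lines 1 FPKM. Zfp811 lies far to the left at 0.0261 against 1.61 FPKM, while Zfp385a, Zfp395 and Zfp704 lie well below the line.

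Other families of C2H2 genes are given for comparison, beside 50.5% lower and 30.5% higher of all genes. Of 34 tested Zbtb genes, which join zinc fingers to a BTB domain, 18 were lower (52.9%) and 8 higher (median -0.23), and of 13 Zkscan and Zscan genes, which carry a SCAN domain, 8 were lower (61.5%) and 0 higher (median -0.40). No difference between these families and the Zfp genes was tested. After median-of-ratios scaling 16 Zbtb genes were lower and 12 higher, and 7 and 2 of the Zkscan and Zscan genes. Of all genes 39.8% were then lower and 39.7% higher.

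Of the 6 most abundant Zfp transcripts 2 were higher, 2 lower and 2 not called. Zfp106, an RNA-binding protein needed by motor neurons and muscle, read 28.9, 28.7 and 27.4 FPKM in the WT-labelled libraries and 33.6, 34.3 and 33.2 in those labelled CKO, a rise of 0.24 on the log2 scale (SE 0.0355, limma adjusted p = 6.31e-05). Zfp710 read 30.7, 30.2 and 29.7 against 29.7, 28.2 and 29.0 FPKM and was not called (-0.06, 95% interval -0.14 to 0.02, limma adjusted p = 0.143); median-of-ratios scaling turned its sign. Zfp263, a SCAN and KRAB protein, read 20.1, 20.2 and 20.8 against 20.8, 20.2 and 20.4 FPKM, and was not called (95% interval -0.07 to 0.09); after median-of-ratios scaling it was called higher at 0.17 (limma adjusted p = 0.00106). The groups overlapped for Zfp263 and were only just apart for Zfp710.

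Zfp207, a spindle assembly protein that binds microtubules, fell by 0.40 (24.4, 22.0 and 23.0 against 17.5, 17.5 and 16.8 FPKM, limma adjusted p = 5.62e-06). Its lowest library labelled WT stood above every library labelled CKO. Zfp445, which maintains imprinted methylation, read 16.4, 16.2 and 16.9 against 19.0, 19.4 and 16.9 FPKM. Its rise of 0.15 (limma adjusted p = 0.0189) rested on few libraries: the adjusted p was 0.0551 without WT replicate 2, 0.0674 without CKO replicate 1 and 0.0821 without CKO replicate 2. Zfp131, a BTB zinc finger protein, missed the threshold at 7.33 ± 0.135 against 7.93 ± 0.158 FPKM (SD, n = 3 each; limma adjusted p = 0.0554) and was past it after either scaling.

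Among members that reached 1 FPKM in at least 1 library of both groups, the largest 3 decreases belonged to genes outside the annotated KRAB set. Zfp704 read 8.10, 8.32 and 8.22 FPKM in the WT-labelled libraries and 1.07, 1.02 and 0.979 in those labelled CKO (chromosome 3, 9427020 to 9610085, mm10). This was an 8.02-fold difference of means and a fold change of -2.19 (SE 0.0520, limma adjusted p = 8.29e-12). Zfp395, a related protein that binds the promoter of the Huntington disease gene, read 7.28, 7.12 and 7.94 against 1.09, 1.45 and 1.33 FPKM (-1.89, SE 0.0707, limma adjusted p = 4.04e-10). For both genes every library labelled CKO lay far below every library labelled WT.

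Zfp385a, a double-stranded RNA binding protein and p53 cofactor, was the most abundant member in the libraries labelled WT at 43.9, 45.4 and 43.3 FPKM. It read 9.96, 11.2 and 11.8 in those labelled CKO (chromosome 15, 103313895 to 103340093), a change of -1.92 (SE 0.0544, limma adjusted p = 3.56e-11). In rank it went from first to below several members, among them Zfp106, Zfp710, Zfp263, Zfp207, Zfp445 and Zfp598. The exact two-sided permutation test gave p = 0.1 for each of these 3 genes, the smallest that 3 against 3 libraries allow.

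The remaining large decreases were 2.11-fold to 2.88-fold. Zfp467, an enhancer of STAT3 activity, went from 7.69 ± 0.336 to 2.71 ± 0.0899 FPKM (SD, n = 3 each), and Zfp367 from 5.16 ± 0.196 to 1.80 ± 0.0290. Zfp219, a repressor and partner of Sox9, went from 11.02 ± 0.349 to 4.62 ± 0.482, and Zfp652, a repressor that works with CBFA2T3, from 5.97 ± 0.235 to 2.58 ± 0.169; both overlap other listed genes (Arhgef40 and Tmem253, Abi3 and Phospho1), with which reads could be shared. The KRAB genes Zfp709 and Zfp251 fell from 3.94 ± 0.200 to 1.50 ± 0.187 and from 4.35 ± 0.288 to 1.79 ± 0.270, and Zfp358 from 9.63 ± 0.398 to 4.56 ± 0.472. All 10 fell without overlap between the groups, with fold changes of -0.94 to -2.19 and limma adjusted p of 4.65e-07 or less. Each stayed called in every setting that kept it, as the filter on higher mean levels left some of them out.

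The largest increases were smaller in size. Zfp719, a KRAB gene, read 1.33, 1.52 and 1.34 FPKM in the WT-labelled libraries and 4.56, 4.04 and 3.99 in those labelled CKO (chromosome 7, 43579610 to 43593235), a 3.01-fold difference of means (1.12 on the log2 scale, SE 0.0650, limma adjusted p = 2.11e-08). Its lowest library labelled CKO exceeded the highest labelled WT by a wide margin. Zfp281, a repressor that partners the NuRD complex at stem cell genes, read 7.21, 6.74 and 7.27 against 11.7, 12.5 and 10.8 FPKM (0.65, SE 0.0570, limma adjusted p = 8.38e-07). Zfp292, first described at the growth hormone gene, read 4.72, 4.40 and 4.66 against 9.21, 9.45 and 8.49 FPKM, and Zfp35 7.77, 6.75 and 7.15 against 13.4, 13.4 and 14.0.

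Zfp800 went from 5.20 ± 0.378 to 10.1 ± 0.364 FPKM (SD, n = 3 each), Zfp654 from 3.90 ± 0.298 to 7.57 ± 0.406 and Zfp821 from 0.949 ± 0.162 to 2.53 ± 0.145. Lower in the order were Zfp958, from 2.70 ± 0.444 to 4.71 ± 0.467 FPKM, Zfp691, from 1.55 ± 0.130 to 2.90 ± 0.555, and Zfp438, from 0.993 ± 0.119 to 1.89 ± 0.297. The 10 genes rose by 0.53 to 1.12, with limma adjusted p from 2.11e-08 to 0.000137, and were higher in 3 of 3 libraries labelled CKO.

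**Figure D3:**
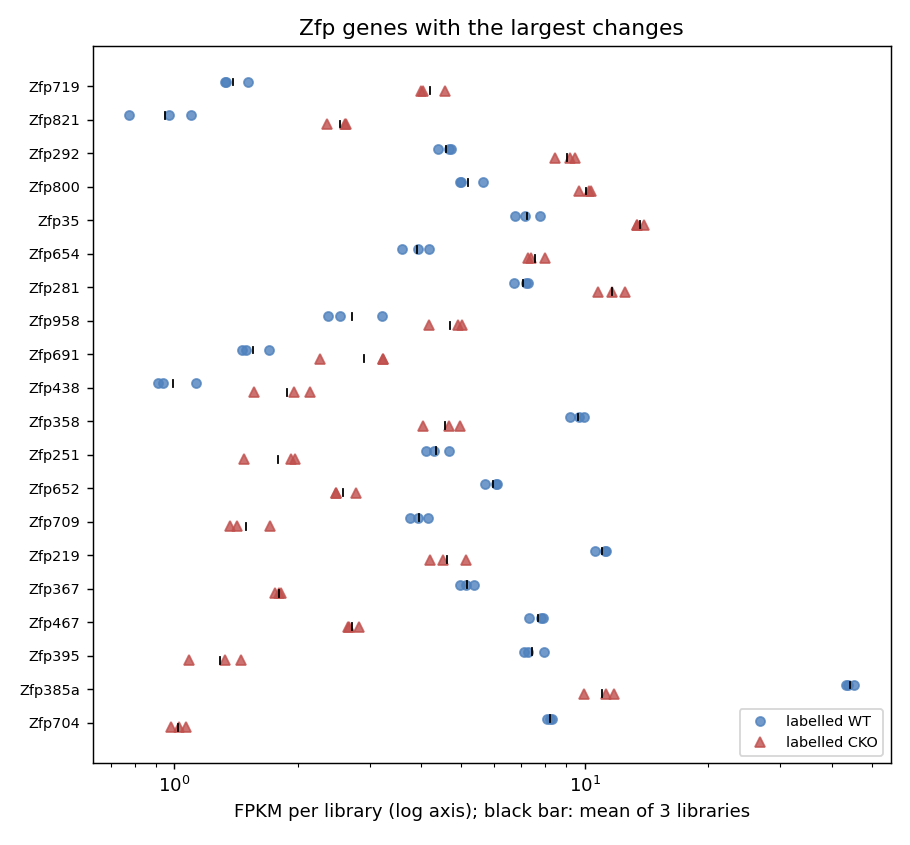
FPKM per library (log axis) of the 10 members with the largest increases (top) and the 10 with the largest decreases (bottom) among called members without overlap that reached 1 FPKM in at least 1 library of each group, with circles for the 3 libraries labelled WT, triangles for the 3 labelled CKO and black bars for the means. In no gene do the groups overlap, and Zfp704 at 8.21 against 1.02 FPKM shows the widest gap.

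A further 18 members reached 1 FPKM in 1 group only, 13 in libraries labelled WT and 5 in those labelled CKO; the rule let these in through the group where they were high, so their values are a description with no test. In the first set Zfp579 read 2.74, 2.08 and 2.60 against 0.674, 0.811 and 0.932 FPKM, and the KRAB gene Zfp101 1.30, 1.39 and 1.43 against 0.407, 0.393 and 0.304. Zfp398, Zfp810 and Zfp619, also KRAB genes, went from means of 1.37, 1.29 and 1.15 to 0.548, 0.522 and 0.486 FPKM. These 5 genes thus read 2.36-fold to 3.73-fold higher in the libraries labelled WT.

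In the second set Zfp811 stood out. This KRAB gene (chromosome 17, 32795676 to 32809931) was covered by 3, 1 and 1 reads in the WT-labelled libraries and by 114, 82 and 93 in those labelled CKO, or 0.0458, 0.0157 and 0.0169 against 1.87, 1.50 and 1.47 FPKM. The ratio per library read was 60.9, with a 95% counting interval of 25.8 to 189. It was close to silent in one group and at a level usual for KRAB genes in the other. Zfp558, whose human counterpart is linked to a mitophagy gene, read 0.369, 0.410 and 0.306 against 2.36, 1.69 and 1.73 FPKM, a ratio of reads of 5.33 (4.10 to 7.02). Zfp93 and Zfp105 read 0.642 and 0.588 against 1.35 and 1.20 FPKM in the mean. Zfp930, at 0.857 against 1.13 FPKM, was among the 3 members just inside the level: the third highest library was at 1.01 FPKM for Zfp566, 1.03 for Zfp661 and 1.06 for Zfp930. Just outside stood Zfp446 at 0.992, Zfp469 at 0.977 and Zfp341 at 0.971 FPKM.

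By role, Zfp proteins that act on RNA or ribosomes come first. Of 11 such genes 10 were tested (Zfp593 was below the level), and 7 were lower, 2 higher and 1 not called, with a median of -0.39, where 50.5% of all genes were lower and 30.5% higher; no test of these 10 genes as a group was made. After median-of-ratios scaling 7 were lower and 3 higher, where 39.8% and 39.7% of all genes were. Besides Zfp385a and Zfp207, the decreases were of Zfp318, needed for IgD expression (3.12 ± 0.292 to 1.50 ± 0.121 FPKM, SD, n = 3 each), Zfp622, a ribosome maturation factor (10.1 ± 0.0313 to 6.02 ± 0.179), Zfp830, a splicing-associated protein (12.3 ± 0.368 to 9.16 ± 0.115), Zfp326 of the DBIRD complex, which links splicing to transcription (4.22 ± 0.0481 to 2.99 ± 0.268), and Zfp638, a partner of the silencing complex HUSH (5.85 ± 0.210 to 4.60 ± 0.185). Increases were of Zfp106 and of Zfp346, which binds double-stranded RNA (3.17 ± 0.172 to 3.65 ± 0.0330; it overlaps Gm17617). Zfp598, the ubiquitin ligase that marks collided ribosomes, read 13.9, 12.96 and 13.3 against 14.3, 14.0 and 13.3 FPKM, with overlapping groups and an interval of -0.05 to 0.15 for the difference; after median-of-ratios scaling it was called higher at 0.21 (limma adjusted p = 0.000942).

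Members of chromatin and transcription complexes moved in both directions. Of 24 genes 19 were tested, with 9 higher (47.4%; 30.5% of all genes), 6 lower (31.6%; 50.5% of all genes) and 4 not called and a median of 0.10. Median-of-ratios scaling gave 12 and 4, where 39.7% and 39.8% of all genes were called. Quantile normalization gave 11 and 5, where 35.9% and 43.4% of all genes were. The list was not tested as a group. Beside Zfp281 and Zfp445, the increases included Zfp462 (1.04 ± 0.0155 to 1.79 ± 0.230 FPKM, SD, n = 3 each), Zfp609, a partner of Integrator and NIPBL (3.42 ± 0.282 to 4.75 ± 0.332), its relative Zfp608 (1.27 ± 0.175 to 1.63 ± 0.0785), Zfp516, a transcription factor of brown fat (7.04 ± 0.252 to 9.33 ± 0.310), Zfp335, of a histone H3 methyltransferase complex (5.96 ± 0.712 to 7.04 ± 0.292, with overlapping groups and an overlap with Pcif1) and Zfp217, a CoREST partner (12.7 ± 0.282 to 13.7 ± 0.451). In the other direction were Zfp219, Zfp644, a partner of the G9a methyltransferase (2.44 ± 0.108 to 1.64 ± 0.0705), Zfp746, a repressor of PGC-1alpha (3.73 ± 0.114 to 2.73 ± 0.177), Zfp592 (7.45 ± 0.369 to 5.85 ± 0.375), Zfp384 (12.5 ± 0.369 to 10.6 ± 0.799) and the SUMO ligase Zfp451 (2.84 ± 0.133 to 2.32 ± 0.0288). The calls of Zfp384 and Zfp451 were lost under median-of-ratios scaling. Zfp410, the activator of Chd4, read 2.75, 2.56 and 3.00 against 3.21, 3.12 and 2.93 FPKM and was not called (limma adjusted p = 0.1003).

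Of the 6 KRAB proteins known for silencing retroelements or keeping imprints, 4 were tested. Zfp568, which silences a placental Igf2 transcript, went from 2.20 ± 0.174 to 2.64 ± 0.0574 FPKM and was called higher with Zfp445. Zfp809, which silences murine leukemia viruses, went from 5.12 ± 0.0540 to 3.98 ± 0.507 and Zfp932, which acts on endogenous retroviruses, from 3.03 ± 0.156 to 2.40 ± 0.153 (SD, n = 3 each). Both decreases were called on FPKM as deposited (limma adjusted p = 0.00241 and 0.00314) and not after median-of-ratios scaling (0.0541 and 0.0925). Zfp57, the other imprint keeper, had 1 library above 0, and Zfp708 had no read. Of the 3 ubiquitin or SUMO ligases, Zfp91 of the noncanonical NF-kB pathway went from 12.5 ± 0.304 to 10.6 ± 0.418 FPKM, a call that was also lost under median-of-ratios scaling.

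The machinery that KRAB proteins recruit held genes that moved either way. Of 24 corepressor genes, all tested, 16 were lower (66.7%; 50.5% of all genes), 4 higher (16.7%; 30.5%) and 4 not called (median -0.26). After median-of-ratios scaling 11 were lower (45.8%; 39.8% of all genes) and 7 higher (29.2%; 39.7%). Chd4, the remodeler of the NuRD complex, read 65.2, 65.6 and 64.8 FPKM in the WT-labelled libraries and 41.7, 41.0 and 40.1 in those labelled CKO (-0.66, SE 0.0304, limma adjusted p = 2.57e-09). Hdac1, the deacetylase of the same complex, went the other way, from 15.5, 15.7 and 14.4 to 28.2, 27.2 and 27.1 FPKM (0.82, SE 0.0418, limma adjusted p = 6.61e-09). Both moved without overlap of the groups. The other NuRD parts Mta1 and Rbbp7 went from 12.7 ± 0.0732 to 9.37 ± 0.128 and from 26.0 ± 1.78 to 17.0 ± 1.20 FPKM (SD, n = 3 each). Uhrf1, which guides maintenance of DNA methylation, went from 2.50 ± 0.216 to 0.666 ± 0.0101, and Morc3, a chromatin ATPase, rose from 17.2 ± 0.840 to 26.8 ± 1.25. Uhrf1 was under 1 FPKM in every library labelled CKO, so the level required for testing fixed its direction. The counts of lower corepressor genes include it. Trim28, the hub of KRAB silencing, went from 31.0 ± 0.840 to 23.9 ± 0.832 FPKM (-0.36, limma adjusted p = 4.88e-06).

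Expressed Zfp genes lay in clusters, and members of the same large cluster did not all get the same call. Of all tested genes 50.5% were lower and 30.5% higher, and after median-of-ratios scaling 39.8% and 39.7%. Counts per cluster were not tested against these shares. Grouping members whose gaps were at most 500 kb, the neighbourhood with most members held 21 on chromosome 17 (21008903 to 23564238, mm10): 7 were higher, 7 lower and 7 not called, and 9 higher and 3 lower after median-of-ratios scaling. The next, on chromosome 13 (67121660 to 67827002), held 16, of which 8 were lower, 1 (Zfp429) higher and 7 not called, with the same counts after scaling. The third, again on chromosome 17 (32765496 to 33631779), held 12, with 9 lower, 2 not called and Zfp811 alone higher; scaling gave 8 and 2. There Zfp871 went from 12.4 ± 0.592 to 7.03 ± 0.677 FPKM and Zfp472 from 3.82 ± 0.516 to 1.54 ± 0.281 (SD, n = 3 each), within the same stretch as Zfp811.

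**Figure D4:**
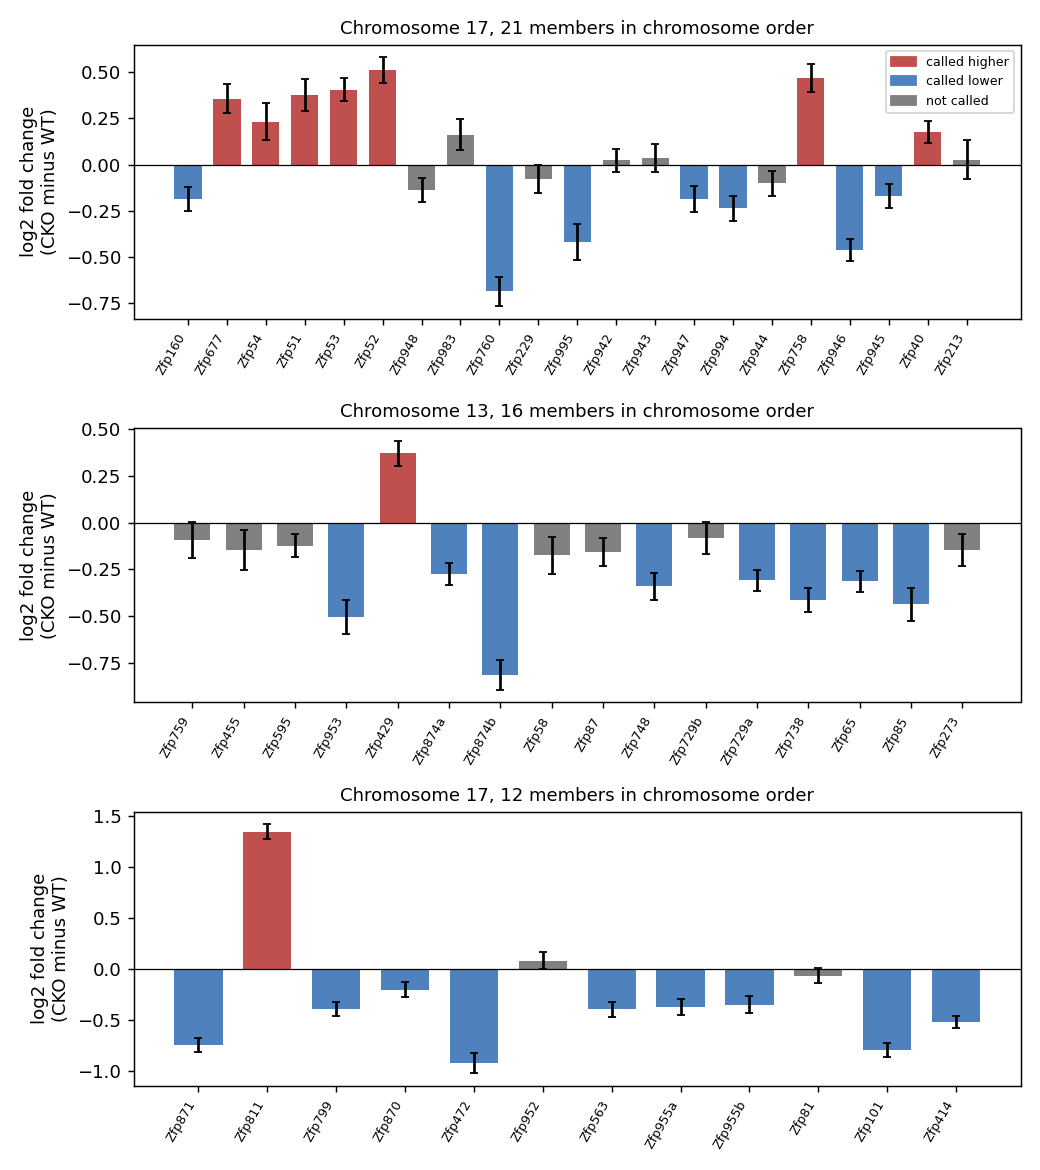
Log2 fold change, labelled CKO minus labelled WT, with its standard error from limma, for the members of the 3 neighbourhoods with most members, in chromosome order; red bars were called higher, blue lower and grey not called. At the left of the top panel 5 adjoining genes from Zfp677 to Zfp52 are all red, and in the bottom panel Zfp811 at 1.34 stands among lower genes. Zfp811, Zfp799, Zfp563 and Zfp101 of that panel reached 1 FPKM in 1 group only, so the rule fixed their direction.

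In the first neighbourhood 5 members next to each other were all called higher, a run that was noticed after the values were seen. Zfp52 read 6.55, 5.25 and 6.07 FPKM in the WT-labelled libraries and 8.32, 9.39 and 8.98 in those labelled CKO (0.51, limma adjusted p = 4.39e-05), and Zfp53 5.19, 4.80 and 5.11 against 6.40, 7.53 and 7.09 (0.41, limma adjusted p = 7.88e-05). For Zfp677 the values were 3.87, 4.16 and 3.17 against 5.14, 5.18 and 4.81 FPKM, and for Zfp51 3.23, 2.94 and 4.15 against 4.67, 4.51 and 5.02. Zfp54, with 1.04, 1.48 and 1.78 against 1.77, 1.79 and 1.94 FPKM, had overlapping groups and an adjusted p from limma of 0.0494. The flanking members were Zfp160, lower at 3.14 ± 0.126 against 2.64 ± 0.253 FPKM (not called after median-of-ratios scaling), and Zfp948, not called. These genes are close relatives, between which the counting could have split reads.

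In the chromosome 13 neighbourhood Zfp874b read 3.08, 3.50 and 3.12 against 1.36, 1.68 and 1.20 FPKM (-0.82, SE 0.0790, limma adjusted p = 1.96e-06). Its neighbour Zfp874a read 2.19, 2.28 and 2.34 against 1.69, 1.83 and 1.59 (-0.28, limma adjusted p = 0.00132). Zfp953 read 2.18, 2.24 and 2.34 against 1.68, 1.11 and 1.12 (-0.51, limma adjusted p = 0.000317), and Zfp595 1.29, 1.26 and 1.32 against 1.19, 1.10 and 1.02 FPKM, which was not called (limma adjusted p = 0.0841). All 4 had their libraries labelled CKO below those labelled WT, to different extents. Zfp953 and Zfp595 overlap the listed genes Gm28041 and Gm28044, with which reads could be shared.

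The promoters of these 4 genes are shown because they share letters that few promoters hold. RefSeq promoter stretches (GRCm38.p6, the mm10 assembly) were found for 214 of the 251 members, and the 250 bases before the start were read. Each of the 4 stretches, all on the minus strand and printed 5′ to 3′, holds the cyclic AMP response element TGACGTCA and, a few bases before it, the reverse complement of ACTACANTTCCC, a core of the site known for the activator ZNF143; both are in capitals. They come from chr13:67360573-67360822, chr13:67332561-67332810, chr13:67451625-67451874 and chr13:67484254-67484503 in the order shown.
Zfp953: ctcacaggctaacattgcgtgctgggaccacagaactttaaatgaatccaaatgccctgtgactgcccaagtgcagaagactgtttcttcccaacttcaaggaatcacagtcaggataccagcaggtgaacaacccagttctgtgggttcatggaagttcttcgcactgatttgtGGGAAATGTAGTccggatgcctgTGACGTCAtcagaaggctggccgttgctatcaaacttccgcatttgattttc
Zfp595: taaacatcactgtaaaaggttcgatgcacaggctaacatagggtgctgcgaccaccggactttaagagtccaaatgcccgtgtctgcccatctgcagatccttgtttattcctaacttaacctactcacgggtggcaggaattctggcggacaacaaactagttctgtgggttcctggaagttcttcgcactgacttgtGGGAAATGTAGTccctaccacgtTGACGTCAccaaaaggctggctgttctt
Zfp874a: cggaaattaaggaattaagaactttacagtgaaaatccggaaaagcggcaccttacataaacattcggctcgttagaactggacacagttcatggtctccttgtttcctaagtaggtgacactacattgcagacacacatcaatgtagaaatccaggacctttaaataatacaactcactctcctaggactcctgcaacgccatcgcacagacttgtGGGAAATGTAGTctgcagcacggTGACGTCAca
Zfp874b: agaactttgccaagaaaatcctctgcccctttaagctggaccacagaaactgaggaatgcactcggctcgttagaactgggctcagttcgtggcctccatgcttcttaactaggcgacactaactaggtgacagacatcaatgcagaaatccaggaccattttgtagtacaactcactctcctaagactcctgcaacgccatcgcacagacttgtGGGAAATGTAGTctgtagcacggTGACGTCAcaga

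The same 17 letters, ttgtgggaaatgtagtc, stand in all 4 stretches. Of 27025 RefSeq promoters 14 hold this run on either strand, and 6 of these belong to members. The run was defined as the longest that the 4 stretches share, so 4 of these 6 were certain beforehand. By global alignment 76.8% of the 250 bases are identical between Zfp874a and Zfp874b and 71.6% between Zfp953 and Zfp595, so these are not independent cases. Zfp595 was not called and Zfp874b fell by 0.82, although both hold the same motifs.

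Over all members, searching both strands, ACTACANTTCCC was found in 33 of 214 promoters (15.4%) and in 0.940% of the 27025. Among annotated KRAB members it was in 27 of 110 (24.5%) and among the others in 6 of 104 (5.77%). This motif was added after the sequences had been read. Its letters were taken from the run shared by the 4 printed promoters of Zfp953, Zfp595, Zfp874a and Zfp874b, with 1 letter left free. These 4 are among the 33, so the share in members is not independent of them. It was present in 4 of 35 promoters of higher members, 18 of 119 of lower ones and 11 of 60 of those not called, shares of 11.4%, 15.1% and 18.3%. Higher Zfp93 and lower Zfp566, both with the motif, reached 1 FPKM in 1 group only, so the rule fixed their direction. Zfp143, the mouse gene for ZNF143, is itself a member, named here after its values were seen: it read 6.58, 5.45 and 5.65 FPKM in the WT-labelled libraries and 8.02, 8.82 and 7.42 in those labelled CKO (0.40, SE 0.0732, limma adjusted p = 0.000386). A match of letters is a description and no evidence of binding.

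The cyclic AMP response element was in 4.21% of member promoters and 1.62% of all, and the ETS motif CCGGAAGT in 9.81% and 2.93%. The first of these is 9 members, among them Zfp953, Zfp595, Zfp874a and Zfp874b, which are not independent cases. Motifs of inflammatory signalling were rare or near the background: the interferon-response motif (GAAA, 2 free bases and GAAA) was in 1.40% of member promoters and 3.04% of all, the AP-1 motif TGANTCA in 3.27% and 6.87%, and the NF-kB motif (GGGA, 1 free base and TTTCC) in 0.935% and 0.337%, which is 2 members. Member stretches held a median of 11 CpG against 6 in all promoters, 9 in KRAB members and 13 in the others. By base content members called higher and lower were close, with a median of 53.6% and 54.0% G and C.

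For the run of higher genes on chromosome 17, the stretches of 3 genes whose groups did not overlap are given, Zfp677 (chr17:21383498-21383747), Zfp53 (chr17:21488738-21488987) and Zfp52 (chr17:21535289-21535538), all on the plus strand. They are shown with that of Zfp811 (chr17:32809932-32810181, minus strand), the gene with the largest ratio between groups. None of the 6 motifs is in these 4 windows, so no letter is in capitals.
Zfp677: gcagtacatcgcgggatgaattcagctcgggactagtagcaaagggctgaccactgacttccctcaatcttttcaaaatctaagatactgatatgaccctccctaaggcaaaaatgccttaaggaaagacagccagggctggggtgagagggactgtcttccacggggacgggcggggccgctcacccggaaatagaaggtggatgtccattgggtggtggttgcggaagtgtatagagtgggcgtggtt
Zfp53: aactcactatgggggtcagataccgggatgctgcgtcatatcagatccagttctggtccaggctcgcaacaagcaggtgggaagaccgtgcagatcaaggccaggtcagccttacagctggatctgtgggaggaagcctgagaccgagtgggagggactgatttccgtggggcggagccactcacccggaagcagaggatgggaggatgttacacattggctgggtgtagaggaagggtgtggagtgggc
Zfp52: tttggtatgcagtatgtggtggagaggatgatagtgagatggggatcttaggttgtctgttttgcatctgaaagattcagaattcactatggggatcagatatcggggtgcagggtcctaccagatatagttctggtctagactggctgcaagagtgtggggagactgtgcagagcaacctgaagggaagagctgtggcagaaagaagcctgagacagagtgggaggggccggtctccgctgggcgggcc
Zfp811: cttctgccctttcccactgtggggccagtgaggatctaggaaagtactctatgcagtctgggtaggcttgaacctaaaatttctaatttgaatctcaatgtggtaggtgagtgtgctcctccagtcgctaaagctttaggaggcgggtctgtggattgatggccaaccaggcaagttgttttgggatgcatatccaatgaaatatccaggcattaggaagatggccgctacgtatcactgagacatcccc

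Zfp677 and Zfp53 share 54.8% of their bases in alignment, and the other pairs among these 4 share 42.4% to 47.6%. Zfp811 shares 42.4% to 43.2% with the other three. The same alignment gave 40.4% to 46.8% between these 4 and the promoters of Zfp953, Zfp595, Zfp874a and Zfp874b. Shares in that range are thus not particular to genes of the same neighbourhood.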

How the data were processed

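Values are FPKM computed by the authors, per the file headers, with 1 table for each library; reads were divided by gene length and by all reads assigned to genes. Libraries were made from TRIzol-extracted RNA with a stranded mRNA kit, per the labels' protocols. The submitters' processing notes list genome build mm10 and the tools Cufflinks, DESeq2 1.22.1, fastp 0.19.3, featureCounts 1.6.2, GATK 4.0.11.0, HISAT2 2.1.0 and StringTie 1.3.4d with no role or order, and whether counting used strand is not given in the sources used here. FPKM times gene length gave whole reads for 100% of values within 0.01 reads, so depth could be recovered; 3 reads of a gene of 1 kb are 0.163 to 0.195 FPKM. Reads carried no molecular identifiers, so intervals cover counting error only.

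Groups and replicate numbers came from the sample titles. In R 4.3.3, limma 3.58.1 (lmFit, eBayes with trend) was fitted to log2(FPKM + 1) of genes at 1 FPKM or more in at least 3 libraries, with Benjamini-Hochberg adjustment over all of them. Fold changes are on that scale, which understates changes of low genes. The fit was tested on simulated data in which a small part of the genes was changed, with signs drawn at random. In the real comparison 81.1% of all tested genes were called, a setting which that simulation did not cover. The members and the gene lists were chosen with earlier results of these data known. Named were, in each direction, the 10 members with the largest change among called members without overlap and at 1 FPKM in at least 1 library of both groups, the 6 most abundant, the 4 not called with the smallest standard error, up to 5 per direction at the level in 1 group only, 3 on either side of the level, role lists, the 6 corepressor genes with the smallest p, and the 3 neighbourhoods with most members; Trim28 and Zfp143 were added after their values were seen. KRAB type was read from the KEGG column. Of the members, 30 overlap another listed gene, so their reads may be shared. Alternatives were a replicate block, each library left out, other pseudocounts, filters, scalings and thresholds, and limma voom on the recovered reads. Other steps used Python 3.11.15 with scipy 1.17.1, pandas 2.3.3 and numpy 2.4.6.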

Additional observations from a re-analysis of the deposited data

How the results depend on the processing

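Among fold changes of named members under the alternatives, 566 kept their direction and their side of the threshold, 6 passed it (Zfp131, Zfp263 and Zfp598), 5 missed it (Zfp445 and Zfp930, each with 1 library left out) and 2 changed sign. These include the named members at 1 FPKM in 1 group only, Zfp930 among them. The rule fixed their direction, so keeping it is no sign of a stable result for them. Without 1 library, 41 to 46 members were called higher and 128 to 138 lower. With the replicate block 47 were higher and 136 lower, and 182 of 186 calls remained. Without a block and with every library 30.5% of all genes were higher and 50.5% lower. Their shares with the block or with 1 library left out are not given here. Same-numbered libraries did not deviate together (correlations of 0.019, 0.012 and -0.039). Low correlations cannot show whether the numbers pair the samples. A mean of at least 5 FPKM left 65 members, of which 17 were higher and 34 lower. Without this filter, all genes between 5 and 10 FPKM were higher in 27.3% and lower in 51.5%. Those above 10 FPKM were higher in 38.0% and lower in 48.6%. Quantile normalization gave 74 higher (29.5%; 35.9% of all genes). A threshold of 0.5 on the log2 scale beside the adjusted p left 15 higher and 51 lower, and of the corepressor genes 2 higher and 3 lower. The share of all genes past this threshold is not given here. Both counts of members include some at 1 FPKM in 1 group only, whose direction the rule fixed. Median-of-ratios scaling gave 7 higher among the corepressor genes (29.2%; 39.7% of all genes). Zfp710 turned to 0.11 under median-of-ratios scaling (limma adjusted p = 0.0178), and Zfp263 ranged from -0.0019 (without CKO replicate 1) to 0.023 (without WT replicate 3) when 1 library was left out; the cause was not tested. Depth limits the low genes most: Zfp811 rests on 5 reads in the libraries labelled WT.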
